A study of Mus musculus with 75 samples.

Results

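Open chromatin shared by early and late passage mouse skin fibroblasts was compared between passage 1 (P1) and passage 7 (P7). The regions were those with an ATAC-seq peak in all 4 P1 and all 3 P7 samples, and there were 115029 of them among 288796 regions with a peak in any of the 7 samples. Of the shared regions, 14065 had their summit within 1000 bases of an annotated transcription start site and are called promoter regions, and the other 100964 are called distal regions. The cells were untreated skin fibroblasts of 2-month-old female C57BL/6 mice, carried without added genes from P1 to P7 by splitting 1:3, and the study followed them as a model of replicative senescence. RNA-seq of the same passages had 4 libraries at each of P1 and P7. The ATAC-seq samples of P3 and P5, 3 each, were used only where named. The study describes its methylation samples as independent series, but for ATAC-seq and RNA-seq the sources used here do not say whether replicates came from separate mice or cultures, so that p-values measure the spread between these samples, which may be technical.

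In ATAC-seq, a transposase inserts adapters where DNA is not covered by nucleosomes, and a peak marks a promoter, enhancer or other accessible site. Replicative senescence is the lasting arrest of cells after many divisions. Of the Cdkn2a products, p16 restrains kinases that drive division, and p19Arf acts through the p53 pathway. E2F proteins act with pocket proteins at promoters of replication genes, while AP-1, TEAD, RUNX and EBF proteins bind many fibroblast enhancers.

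Stretches around the summits of 11 regions are shown, since the results below turn on them. Each one lies outside RefSeq exons, is given 5′ to 3′ on the strand named and uses build GRCm38 (mm10). Capitals mark matches to short letters of the motifs AP-1 (TGACTCA), TEAD (ACATTCC), E2F (TTCCCGC or TTGGCGC), EBF (TCCCNNGGG), RUNX (TGTGGTT), LHX (TAATTA), CTCF (AGGGGGCGC), ETS (CCGGAAGT), NFY (CCAAT) and CREB (TGACGTCA), on either strand. E2F and NFY letters can share bases. The sequences are from the RefSeq copy of this build. The first 2 lie before the 2 starts of Cdkn2a, and the next 5 before the starts of Mcm6, Mmp3, Cpa4, H2-K2 and Cnn1. The last 4 lie in an intron of Kcns3, 205271 bases from Cdh11, in an intron of Parm1 and 301231 bases from Dok5.

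Cdkn2a variant 2 start, chr4:89282193-89282305, minus strand: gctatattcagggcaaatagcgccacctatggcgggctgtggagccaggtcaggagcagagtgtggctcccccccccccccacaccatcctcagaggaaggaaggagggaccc
Cdkn2a variant 1 start, chr4:89294714-89294914, minus strand: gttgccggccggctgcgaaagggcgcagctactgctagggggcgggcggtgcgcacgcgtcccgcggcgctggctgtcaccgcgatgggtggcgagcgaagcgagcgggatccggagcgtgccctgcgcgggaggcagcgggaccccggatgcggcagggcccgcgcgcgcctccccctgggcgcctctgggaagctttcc
Mcm6 promoter, chr1:128359706-128359820, minus strand: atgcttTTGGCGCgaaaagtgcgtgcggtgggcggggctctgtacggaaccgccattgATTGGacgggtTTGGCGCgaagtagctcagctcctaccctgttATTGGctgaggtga
Mmp3 promoter, chr9:7445666-7445821, plus strand: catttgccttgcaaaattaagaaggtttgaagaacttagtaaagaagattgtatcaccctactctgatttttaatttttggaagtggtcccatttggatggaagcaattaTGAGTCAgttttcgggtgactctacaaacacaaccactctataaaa
Cpa4 promoter, chr6:30568176-30568368, plus strand: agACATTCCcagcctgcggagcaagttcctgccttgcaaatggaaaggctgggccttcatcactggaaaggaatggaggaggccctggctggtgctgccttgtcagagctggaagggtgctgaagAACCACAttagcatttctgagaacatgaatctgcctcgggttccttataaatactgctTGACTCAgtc
H2-K2 promoter, chr17:33978792-33978978, minus strand: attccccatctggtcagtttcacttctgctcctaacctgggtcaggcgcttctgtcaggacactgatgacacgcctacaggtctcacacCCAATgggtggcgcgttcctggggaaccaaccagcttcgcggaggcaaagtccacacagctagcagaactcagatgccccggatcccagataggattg
Cnn1 promoter, chr9:22099090-22099220, plus strand: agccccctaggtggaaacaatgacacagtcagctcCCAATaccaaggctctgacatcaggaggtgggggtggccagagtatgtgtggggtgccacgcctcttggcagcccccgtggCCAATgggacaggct
Kcns3 intron, chr12:11149746-11149867, minus strand: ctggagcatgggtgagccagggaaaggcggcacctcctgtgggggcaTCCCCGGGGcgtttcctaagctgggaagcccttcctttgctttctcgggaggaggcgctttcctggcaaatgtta
distal to Cdh11, chr8:102579740-102579940, plus strand: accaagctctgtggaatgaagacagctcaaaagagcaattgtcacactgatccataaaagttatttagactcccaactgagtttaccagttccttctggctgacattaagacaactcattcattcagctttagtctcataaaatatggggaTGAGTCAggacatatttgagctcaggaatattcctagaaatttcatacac
Parm1 intron, chr5:91532866-91533066, plus strand: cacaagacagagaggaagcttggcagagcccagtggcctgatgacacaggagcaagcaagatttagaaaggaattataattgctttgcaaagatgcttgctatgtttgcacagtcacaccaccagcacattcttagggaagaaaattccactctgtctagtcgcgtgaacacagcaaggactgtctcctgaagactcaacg
distal to Dok5, chr2:171032938-171033138, plus strand: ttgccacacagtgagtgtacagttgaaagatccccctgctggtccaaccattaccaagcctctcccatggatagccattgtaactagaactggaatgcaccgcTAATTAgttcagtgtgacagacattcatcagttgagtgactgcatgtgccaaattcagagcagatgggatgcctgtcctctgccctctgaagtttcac

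The Mcm6 stretch held 2 E2F and 2 NFY matches, and the Cpa4 stretch held 1 match each of TEAD, RUNX and AP-1. Mmp3 and the region distal to Cdh11 each held 1 AP-1 match. Neither stretch of Cdkn2a held a match to these letters.

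Each P1 list held 168982 to 186562 peaks and each P7 list 200376 to 231558, which did not overlap (exact permutation test over 35 splits, two-sided p = 0.0286, the smallest this design allows). P7 replicate 2 had the most peaks and the narrowest, with a median of 334 bases. The peak lists hold no read counts, so their depth is unknown. The RNA-seq libraries of P1 and P7 held 13430229 to 14852051 counts. Fibroblast markers were abundant, with a summed level of 22689 to 24584 at P1 and 35433 to 38339 at P7 in CPM (counts scaled by library size). RNA of most other cell types was higher at P1. The summed CPM of 11 macrophage markers was 339 to 528 at P1 and 34.05 to 55.001 at P7, that of 10 keratinocyte markers 69.1 to 418 at P1 and 9.85 to 13.1 at P7, and that of 10 skeletal muscle markers 138 to 210.2 at P1 and 38.8 to 109.8 at P7. For 7 endothelial markers it was 169 to 186 at P1 and 10.8 to 13.9 at P7, for 6 adipocyte markers 384 to 516 at P1 and 128 to 309 at P7, and for 8 Schwann cell and melanocyte markers 36.03 to 44.99 at P1 and 43.5 to 128 at P7. At P7, Krt14, Krt1, Dsg3, Myod1, Myog, Myf5, Ckm, Adipoq, Plin1, Dct and Tyr were at 0 counts in all 4 libraries. In such bulk samples, fewer cells of a type and less RNA per cell cannot be told apart.

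Shared regions moved in both directions in strength. Strength was the rank of the peak's p-value within its own sample, from 0 for the weakest to 100 for the strongest shared region. A region was called stronger or weaker at P7 with an adjusted p under 0.05 (limma, Benjamini-Hochberg over all 115029 regions) and a difference of at least 10 points. By this rule 16589 regions were stronger (14.4%) and 17594 were weaker (15.3%). The stronger ones rose by a median of 25.8 points and the weaker ones fell by a median of 23.1 points. This measure is relative: a rank can fall while the signal itself does not. When the rank was taken among all peaks of the sample, shared or not, 20911 regions were stronger and 7831 weaker.

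Promoter regions lost rank to distal regions. Of the 14065 promoter regions, 4097 were weaker (29.1%) and 327 were stronger (2.32%). Of the 100964 distal regions, 13497 were weaker (13.4%) and 16262 were stronger (16.1%). The median percentile of promoter regions was 80.8, 80.7, 80.3 and 81.6 in the 4 P1 samples and 73.5, 69.8 and 72.8 in the 3 P7 samples, so that each P7 sample lay below each P1 sample. For distal regions it was 45.99, 46.04, 46.1 and 45.8 at P1 and 47.2, 47.6 and 47.3 at P7.

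**Figure D1:**
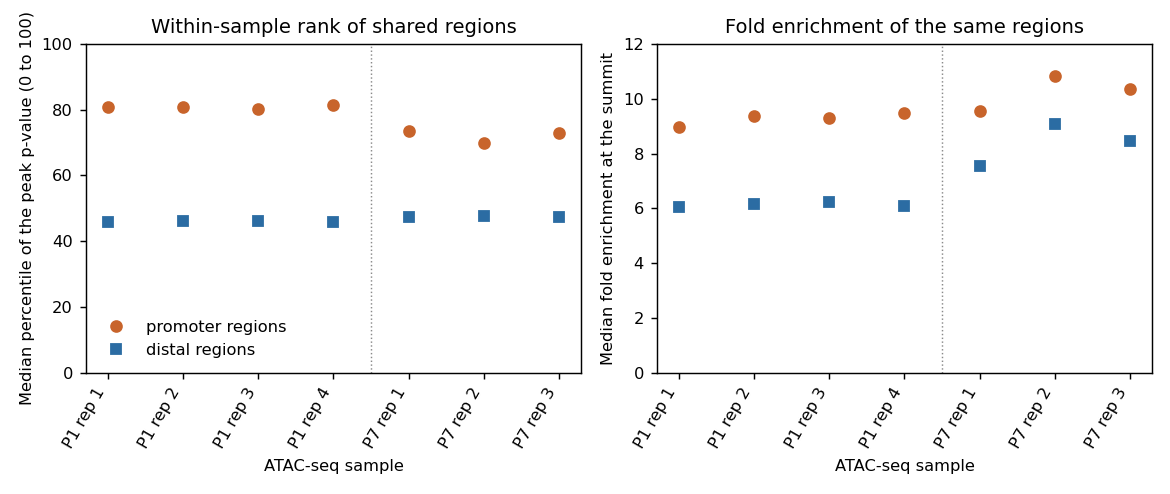
Median within-sample percentile of the peak p-value (left, 0 to 100) and median fold enrichment at the summit (right) in each of the 7 ATAC-seq samples, for promoter regions (circles) and distal regions (squares). The promoter percentile was 80.3 to 81.6 at P1 and 69.8 to 73.5 at P7, while the fold enrichment of both classes was higher at P7.

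The deposited values themselves did not all fall at promoters. The median fold enrichment of promoter regions was 8.97, 9.39, 9.30 and 9.48 at P1 and 9.55, 10.8 and 10.3 at P7. In distal regions it rose further, from 6.04, 6.16, 6.24 and 6.08 at P1 to 7.53, 9.09 and 8.45 at P7. The median -log10 p of promoter regions was 110.4, 100.3, 105 and 118 at P1 and 92.5, 94.5 and 99.6 at P7, whereas in distal regions it was 34.1, 30.4, 33.96 and 33.6 and 42.3, 50.1 and 47.6. Thus the loss of rank was relative to the distal regions of the same sample, and by fold enrichment the promoter medians were higher at P7 in all 3 samples. When ranks were taken from fold enrichment, 25.6% of promoter regions were weaker and 1.83% stronger.

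The step came at the start site and not with distance beyond it. Regions at 1 to 10 kb from a start site were weaker in 12.4% and stronger in 15.03%. At 10 to 100 kb the shares were 12.9% and 16.2%, and over 100 kb 15.4% and 16.8%. By feature at the summit, regions in introns were weaker in 13.3%, intergenic ones in 15.9%, and those in coding exons in 21.8%. In non-coding exons or untranslated parts of exons the share was 27.8%. The feature classes were not split into promoter and distal regions, and intron and intergenic summits include promoter regions.

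**Figure D2:**
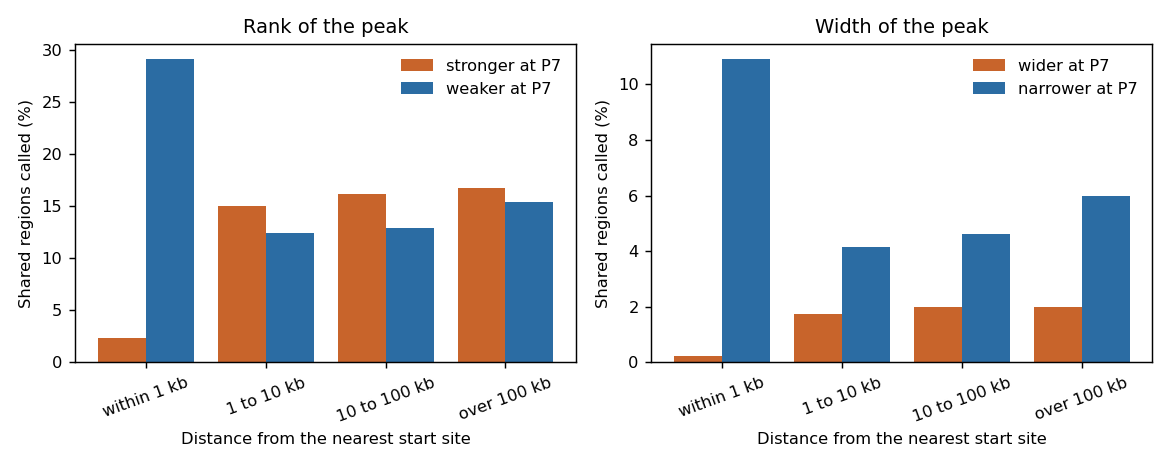
Share of shared regions called stronger or weaker (left) and wider or narrower (right) at P7 against P1, in percent, by distance of the summit from the nearest start site. Regions within 1 kb were weaker in 29.1% and narrower in 10.9%, more than in each class farther away.

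The base composition moved with the change. The window of 201 bases at the summit had a median GC content of 50.2% in weaker regions, 48.3% in regions without a call and 45.3% in stronger regions. Promoter regions had 63.2% and distal regions 46.8%. Among regions of a mean percentile of 50 to 90 and GC under 45%, 22.4% of promoter and 13.7% of distal regions were weaker. At a GC of 45% to 55% these shares were 28.1% and 15.9%, and at 55% to 65% they were 37.5% and 20.9%. Above 65% they were 47.5% and 37.02%. The share of weaker regions therefore went up with GC in both classes, and in each band it was higher at promoters. Whether GC content acted on the measurement was not tested.

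Since RNA of most other cell types was higher at P1, P7 was also compared with P3, a comparison that was added after the data were seen and shares the P7 samples. The summed macrophage markers were 47.5 to 64.5 CPM at P3, a range that overlapped that of P7, as did those of skeletal muscle, adipocyte, and Schwann cell and melanocyte markers. Endothelial markers were still higher at P3 than at P7, at 43.01 to 48.6 CPM, and keratinocyte markers lower, at 4.73 to 7.97 CPM. In the 95274 regions with a peak in all 13 samples, 15.3% of promoter regions were weaker at P7 than at P3 and 0.673% stronger. The same shares for distal regions were 4.69% and 7.65%. P7 against P1 over these regions gave 32.5% and 2.65% at promoters. P7 was also compared with P1 over all 115029 shared regions without P7 replicate 2, the sample with the narrowest peaks. Then 22.5% of promoter regions were weaker and 1.76% stronger, beside 29.1% and 2.32% with all samples.

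Among promoter regions that were called and whose groups did not overlap, the largest loss was at Kcns3, a modulatory subunit of voltage-gated potassium channels. The gap between the groups and the passing p were thus conditions of the choice, here and for the other extremes below. Its region at chr12:11149186-11150914, with the summit 606 bases inside the gene, stood at percentile 87.4, 84.8, 92.4 and 87.2 at P1 and at 16.9, 4.09 and 20.3 at P7. The difference was -74.2 points (SE 6.12, adjusted p = 6.65e-05 by limma). Kcns3 RNA also fell, from 1.38 ± 0.187 at P1 to 0.287 ± 0.0984 at P7 (SD, n = 4 each) in CPM, with a log2 fold change of -2.24 (SE 0.39, adjusted p = 4.82e-05 by edgeR). The stretch printed for this region held an EBF match.

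The H2-K2 region at chr17:33978559-33979118 stood at 79.6, 76.01, 84.6 and 68.1 at P1 and at 16.9, 13.8 and 4.08 at P7. The difference was -65.4 points (SE 6.74, adjusted p = 9.15e-05 by limma). RNA of H2-K2, a class I histocompatibility gene, was 1.67 ± 0.398 at P1 and 0.0960 ± 0.0735 at P7 (SD, n = 4 each) in CPM, with a log2 fold change of -4.02 (SE 0.57, adjusted p = 4.97e-06 by edgeR). Its counts may share reads with near-identical genes of the same family. The Tmem132c promoter fell by 67.1 points (SE 5.88, adjusted p = 6.65e-05 by limma), and its RNA had a log2 fold change of -4.51 (SE 0.37, adjusted p = 3.26e-09 by edgeR). The promoters of Atp10a, a lipid flippase, and Csrnp3 fell by 68.4 and 65.9 points. Atp10a RNA was 23.8 ± 2.19 at P1 and 23.3 ± 8.49 at P7 (SD, n = 4 each) in CPM and passed no test, and Csrnp3 had too few counts to be tested.

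Under the same condition, the 5 promoter regions with the largest gain were at Dao, Celsr3, Cpa4, 1110028F18Rik and Gm11961. At Cpa4, a carboxypeptidase, the region at chr6:30568019-30568525 rose from 39.7, 18.8, 46.6 and 39.8 at P1 to 87.8, 90.9 and 94.4 at P7. The difference was 54.8 points (SE 6.82, adjusted p = 1.94e-04 by limma). This is the promoter printed above with TEAD, RUNX and AP-1 matches. Cpa4 RNA was 0.661 ± 0.836 at P1 and 1.35 ± 0.428 at P7 (SD, n = 4 each) in CPM, with a log2 fold change of 1.04 (SE 0.54, adjusted p = 0.104 by edgeR). The region at Dao, D-amino acid oxidase, rose from 3.95, 1.54, 5.27 and 7.66 to 72.2, 73.2 and 54.4. That at Celsr3, an atypical cadherin, rose from 3.15, 11.3, 9.63 and 6.54 to 62.1, 60.99 and 71.2, and its RNA had a log2 fold change of 0.15 (SE 0.24, adjusted p = 0.603 by edgeR). Thus both regions went from among the weakest shared regions to the upper ranks. RNA of Dao, 1110028F18Rik and Gm11961 was at or near 0 counts and was not tested.

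The extremes among distal regions, chosen in the same way, were larger than those among promoter regions. The region at chr8:102579489-102580008, 205271 bases from the start of Cdh11, a cadherin of mesenchymal cells, stood at 0.273, 3.81, 1.47 and 1.15 at P1 and at 72.7, 84.7 and 83.1 at P7. The P7 samples were all in the upper ranks, and the difference was 78.5 points (SE 6.09, adjusted p = 6.48e-05 by limma). Cdh11 RNA was 957 ± 55.96 at P1 and 871 ± 158 at P7 (SD, n = 4 each) in CPM, with a log2 fold change of -0.14 (SE 0.12, adjusted p = 0.327 by edgeR). An intronic region of Parm1, a mucin-like membrane protein, at chr5:91532749-91533443, stood at 5.81, 9.89, 13.2 and 37.01 at P1 and at 92.7, 95.1 and 93.2 at P7, a difference of 77.2 points (SE 7.86, adjusted p = 8.90e-05 by limma). Here the RNA moved too, from 15.5 ± 1.03 at P1 to 68.04 ± 24.4 at P7 (SD, n = 4 each) in CPM, with a log2 fold change of 2.13 (SE 0.22, adjusted p = 7.36e-08 by edgeR). The other distal gains of this size were nearest to Ccdc71l, Tenm2 and 4933412E24Rik, with 78.2, 78.1 and 77.5 points. Ccdc71l RNA had a log2 fold change of -0.04 (SE 0.10, adjusted p = 0.736 by edgeR), and RNA of the other two was not tested.

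The largest distal loss was nearest to Mapk4, an atypical MAP kinase, where the region stood at 77.9, 83.5, 98.4 and 89.5 at P1 and at 0.746, 1.19 and 1.30 at P7. It fell from among the strongest shared regions to the weakest, by 86.3 points (SE 6.68, adjusted p = 6.48e-05 by limma). Its peaks covered 212 bases in each of the P1 samples and 231, 283 and 224 bases at P7. Not every P3 and P5 sample had a peak there. Why the P1 peaks had equal widths was not tested. Mapk4 RNA was low, at 1.24 ± 0.157 at P1 and 0.365 ± 0.347 at P7 (SD, n = 4 each) in CPM, with a log2 fold change of -1.74 (SE 0.48, adjusted p = 0.00377 by edgeR). The region at chr2:171032781-171033695, far from Dok5, a docking protein of receptor tyrosine kinases, stood at 85.7, 80.7, 81.9 and 91.1 at P1 and at 10.9, 7.41 and 17.01 at P7. The difference was -73.1 points (SE 6.09, adjusted p = 6.65e-05 by limma), whereas Dok5 RNA was 15.3 ± 0.739 at P1 and 16.4 ± 1.71 at P7 (SD, n = 4 each) in CPM and passed no test. The regions nearest to Znf41-ps, Cacna1e, a calcium channel subunit, and C030029H02Rik fell by 73.4, 70.5 and 70.2 points.

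Regions narrowed more often than they widened. Width was the number of bases that peaks of a sample covered in the region, compared on the log2 scale, and a call needed an adjusted p under 0.05 (limma) and a ratio over 1.5. By this rule 1997 regions were wider at P7 (1.74%) and 6405 were narrower (5.57%). The median width of shared regions was 567, 539, 564 and 566 bases in the P1 samples and 546, 463 and 515 bases in the P7 samples, so that P7 replicate 1 lay within the range of P1 and the groups overlapped. After each sample was centred by its own median, 4376 regions were wider and 4075 narrower, so that the excess of narrower regions was no longer there. Single samples weighed on these counts. Without P1 replicate 1, P7 replicate 2 or P7 replicate 3, the wider regions numbered 1314, 1316 and 968. Without P1 replicate 1 or P7 replicate 2, the narrower ones numbered 3896 and 3524.

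Promoter regions narrowed most. Their median width was 1208, 1129, 1157 and 1188 bases at P1 and 1009, 816 and 947 bases at P7, and these ranges did not overlap. Of promoter regions 10.9% were narrower and 0.242% wider, against 4.82% and 1.94% of distal regions. Narrowing went with level: among regions with a mean percentile over 90, 9.43% were narrower and none of 10106 was wider. In regions of 20 to 30, 4.35% were narrower and 4.15% wider.

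Width and strength come from the same peak and moved together. Of the 1997 wider regions 1592 were stronger and 2 weaker, and of the 6405 narrower regions 3011 were weaker and 65 stronger. Pearson's r between the difference in percentile and the log2 width ratio was 0.63 over distal and 0.37 over promoter regions (Spearman's rho 0.61 and 0.26), as a description over regions that share their 7 samples.

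The region that narrowed most lay 10136 bases downstream of the start of Insig1, a sterol-regulated membrane protein, at chr5:28078985-28081850. Its peaks covered 2623, 2308, 2324 and 2389 bases in the P1 samples and 258, 334 and 403 bases in the P7 samples. Its log2 width ratio was -2.88 (SE 0.15, adjusted p = 0.00121 by limma), and its percentile changed by -10.7 points (SE 4.67, adjusted p = 0.0928 by limma), which was not called. Fold enrichment in this region was low and did not fall, at 2.56, 2.41, 2.77 and 2.62 at P1 and 3.30, 4.31 and 3.78 at P7. Insig1 RNA was 281 ± 11.5 at P1 and 115 ± 24.1 at P7 (SD, n = 4 each) in CPM, with a log2 fold change of -1.29 (SE 0.16, adjusted p = 7.40e-07 by edgeR). At Ryr2, a calcium release channel of heart muscle, the promoter region at chr13:12105391-12107381 covered 1541, 1377, 1382 and 1497 bases at P1 and 251, 213 and 227 bases at P7, and Fam69c narrowed to the same extent, with a log2 ratio of -2.66. The regions that widened most were near 1700027F09Rik, Ppp1r3a, a glycogen-targeting subunit of a phosphatase, and Mir7241. The one near Ppp1r3a at chr6:14770898-14771896 covered 201, 200, 222 and 247 bases at P1 and 947, 748 and 959 bases at P7, a log2 ratio of 2.02 (SE 0.14, adjusted p = 0.00252 by limma).

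Expression of the nearest gene was then set beside each region. Of 13442 genes tested by edgeR, 1089 were higher at P7 (8.1%) and 1792 lower (13.3%), with an adjusted p under 0.05 and a fold change over 2. Promoter regions of genes with lower RNA lost the most rank. Their median percentile was 76.9, 76.7, 76.4 and 77.8 at P1 and 62.2, 57.8 and 63.6 at P7. For promoter regions of genes with higher RNA it was 74.8, 75.6, 73.95 and 75.2 and 67.8, 64.02 and 67.6, so both groups fell, the first by more. Weaker regions made up 41.95% of the 1330 promoter regions of lower genes, 27.97% of the 9694 of genes without a call, and 25.4% of the 940 of higher genes. Stronger regions made up 1.65%, 1.43% and 4.36%. At promoters a weaker region was therefore frequent whatever the gene did, and most frequent where the RNA fell.

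**Figure D3:**
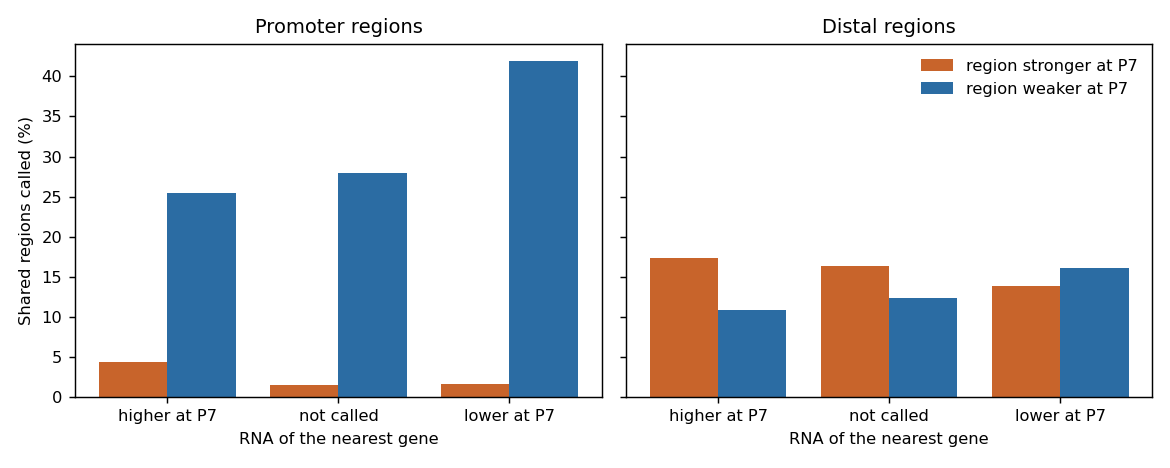
Share of promoter regions (left) and distal regions (right) called stronger or weaker at P7, in percent, by the RNA call of the nearest gene. At promoters, 41.95% of regions of lower genes and 25.4% of regions of higher genes were weaker.

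Where region and gene were both called, 599 of 860 promoter regions (69.7%) moved in the direction of the RNA. Of these, 558 were weaker with lower RNA and 41 stronger with higher RNA. In the opposite direction, 239 were weaker with higher RNA and 22 stronger with lower RNA. Hence of the weaker promoter regions with a called gene most had lower RNA, but so had most called genes. The share in the same direction that these totals alone would give was not computed. Of distal regions, 2490 of 4382 (56.8%) moved with the nearest gene, and this share was 51.1% with ranks of fold enrichment. Regions within 10 kb were no closer to the RNA, at 56.7%. The difference in percentile and the log2 fold change of the nearest gene had a Pearson's r of 0.15 over 11964 promoter regions and 0.06 over 66047 distal regions, as a description, since regions share samples and genes.

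Both directions were seen within Cdkn2a, which encodes a pair of tumour suppressors from separate start sites. The region at chr4:89281958-89283276 covers the start of transcript variant 2, which begins with the first exon of p16. It stood at 29.8, 38.99, 34.4 and 41.1 at P1 and at 72.1, 69.01 and 84.8 at P7, and the groups did not overlap. The difference was 39.2 points (SE 6.51, adjusted p = 8.66e-04 by limma), and the fold enrichment went from 5.15, 6.08, 5.70 and 6.29 to 10, 11.2 and 13.2. The region was also called wider, from 526, 780, 540 and 601 bases at P1 to 1072, 1222 and 1138 bases at P7.

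The region at chr4:89294261-89295988 covers the start of variant 1, which begins with the first exon of p19Arf. It went the other way, from 89.99, 88.9, 94.02 and 90.3 at P1 to 77.6, 68.04 and 67.5 at P7, a difference of -19.7 points (SE 2.61, adjusted p = 2.56e-04 by limma). Its fold enrichment of 11.8, 11.5, 13.5 and 12.8 at P1 and 13.1, 13.7 and 12.1 at P7 overlapped, so the loss was seen in rank and not in this value. Ranked by fold enrichment it fell by 10.5 points and was called. Ranked among all peaks, it fell by 9.43 points and was not called. Cdkn2a RNA was 8.06 ± 1.17 at P1 and 224 ± 36.5 at P7 (SD, n = 4 each) in CPM, with a log2 fold change of 4.79 (SE 0.26, adjusted p = 1.26e-11 by edgeR), and the counts per gene do not separate the variants.

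In the list of CDK inhibitors and p53 pathway genes, 7 of 21 promoter regions were weaker (33.3%, beside 29.1% of all promoter regions), 2 stronger (2.32% of all), and the median difference was -9.04 points, beside -5.40 over all promoter regions. RNA of 5 of 19 genes was higher and of 3 lower, beside 8.1% and 13.3% of all genes tested. Cdkn1a, which encodes p21, had a log2 fold change of 1.53 (SE 0.11, adjusted p = 3.88e-10 by edgeR), whereas its region stood at 78.6, 78.1, 65.5 and 72.4 at P1 and 74.3, 77.7 and 71.02 at P7, so that the groups overlapped. The promoter of Cdkn2c, another inhibitor of the INK4 family, fell by 32.7 points (SE 4.40, adjusted p = 2.77e-04 by limma), and its RNA had a log2 fold change of -1.42 (SE 0.17, adjusted p = 5.51e-07 by edgeR). Lmnb1, a lamin of the nuclear envelope, fell by 26.6 points (SE 3.49, adjusted p = 2.47e-04 by limma) with a log2 fold change of -2.74 (SE 0.14, adjusted p = 3.99e-12 by edgeR) in RNA. Fold enrichment at Lmnb1 was 6.84, 8.66, 7.34 and 6.72 at P1 and 6.91, 7.60 and 7.36 at P7, which overlapped. At Cdkn2c it overlapped as well, so for these promoters the loss was seen in rank. Trp53, which encodes p53, was called stronger by 16.5 points (SE 5.68, adjusted p = 0.0390 by limma). That call rested on each sample, since leaving out any 1 of the 7 samples gave an adjusted p of 0.0605 to 0.121 by limma. Ranked by fold enrichment the region rose by 6.12 points (adjusted p = 0.283 by limma) and was not called. Trp53 RNA had a log2 fold change of -0.45 (SE 0.07, adjusted p = 3.19e-05 by edgeR), which did not pass the fold limit.

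Genes of DNA replication showed weaker promoters about as often as all promoter regions. Of 41 promoter regions of S-phase genes, 13 were weaker (31.7%, beside 29.1% of all) and 0 stronger, while RNA of 40 of 44 genes was lower, beside 13.3% of all genes. Among the weaker ones were Ccne2, Exo1, Gins1, Gmnn, Hells, Mcm6, Pola1, Pole, Prim1, Rfc4, Rrm2 and Tyms. The call of Rrm2 was lost without P7 replicate 1 or 3, and that of Tyms without P1 replicate 1 or 4 or P7 replicate 1 or 2. Fold enrichment at Tyms was 14.6, 13.2, 15.3 and 17.1 at P1 and 15.4, 17.7 and 18.5 at P7, so it did not fall. Mcm6 is a subunit of the replicative helicase. Its region at chr1:128358799-128360287 stood at 92.5, 92.4, 91.8 and 92.1 at P1 and at 63.1, 66.5 and 53.9 at P7. The tight P1 values were all above P7, and the difference was -31.04 points (SE 2.97, adjusted p = 7.71e-05 by limma). The fold enrichment fell as well, from 11.8, 11.8, 12.01 and 11.9 at P1 to 8.33, 10.6 and 8.29 at P7. Mcm6 RNA was 142 ± 6.72 at P1 and 26.6 ± 2.41 at P7 (SD, n = 4 each) in CPM, with a log2 fold change of -2.42 (SE 0.13, adjusted p = 1.79e-11 by edgeR).

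Hells, a chromatin remodelling helicase, went from 70.7, 66.6, 64.04 and 73.03 at P1 to 38.9, 14.04 and 15.5 at P7, by -45.8 points (SE 7.40, adjusted p = 7.54e-04 by limma). Prim1, the small subunit of primase, went from 48.1, 54.4, 57.6 and 48.4 to 23.4, 18.5 and 12.8, by -33.9 points (SE 6.29, adjusted p = 0.00164 by limma). RNA of Hells had a log2 fold change of -2.93 (SE 0.16, adjusted p = 1.79e-11 by edgeR), and that of Prim1 a log2 fold change of -2.95 (SE 0.17, adjusted p = 3.10e-11 by edgeR). For both genes, region and RNA fell, and no P7 sample reached the P1 range. The fold enrichment of both regions was also lower in each P7 sample than in each P1 sample.

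At genes of G2 and mitosis, 5 of 41 promoter regions were weaker (12.2%), beside 29.1% of all promoter regions, with a median difference of -0.592 points. Yet RNA of 44 of 48 of these genes was lower, beside 13.3% of all genes, and of 1 higher. The weaker ones were Cdc25b, Cenpe, Kif20b, Plk1 and Tmpo. Over all shared regions, 22.4% were weaker at a mean percentile of 70 to 80, 14.4% at 80 to 90 and 1.33% at 90 to 100. The P1 mean was 93.2 at Cdc25b, 87.5 at Kif20b, 87.3 at Plk1 and 81.9 at Tmpo. The part of rank in the low share at these genes was not tested. Tmpo, a lamina-associated protein, fell by 28.8 points (SE 5.23, adjusted p = 0.00143 by limma), and Kif20b, a mitotic kinesin, fell by 23.03 points (SE 3.47, adjusted p = 5.12e-04 by limma). Plk1, a mitotic kinase, stood at 86.3, 87.3, 85.7 and 90.2 at P1 and at 83.3, 64.5 and 75.9 at P7. Without P7 replicate 2, in which it was lowest, its difference of -7.75 points was not called. Fold enrichment at Plk1 was 10.9, 11.7, 11.0 and 12.4 at P1 and 13.8, 12.3 and 13.9 at P7. It also overlapped between the groups at Cdc25b, Kif20b and Tmpo.

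Among the factors themselves, 8 of 24 promoter regions of E2F, DP and pocket protein genes were weaker (33.3%, near the 29.1% of all promoter regions), at E2f3, E2f6, E2f7, Lin54, Rb1, Rbl1, Rbl2 and Tfdp1, and both regions of Tfdp2 were stronger. Rb1, the retinoblastoma protein, fell by 30.98 points (SE 6.82, adjusted p = 0.00432 by limma), while its RNA had a log2 fold change of -0.25 (SE 0.17, adjusted p = 0.198 by edgeR). E2f4 stood at 85.9, 85.4, 87.4 and 88.7 at P1 and 90.4, 86.9 and 83.6 at P7, which overlapped. None of the 15 promoter regions of AP-1 subunits was called by limma (7 had a lower and 8 a higher mean at P7). Atf3 stood at 97.2, 98.1, 96.9 and 97.96 and 99.1, 99.1 and 99.5, Fos at 86.97, 89.3, 86.1 and 89.2 and 87.7, 75.1 and 79.8, and Junb at 65.2, 60.1, 44.2 and 65.7 and 68.2, 68.1 and 66.4. From its P1 ranks Atf3 could not rise by the 10 points of a call, and its P7 values all lay above its P1 values. Over all shared regions with a mean percentile of 90 to 100, 0.317% were called stronger and 1.33% weaker. Fos was below the limit of 10 points, but without P7 replicate 1 it fell by 10.5 points and passed.

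TEAD and Hippo pathway genes had 7 weaker and 2 stronger of 21 promoter regions, or 33.3% weaker, beside 29.1% and 2.32% of all promoter regions. Tead1 was stronger, from 63.8, 65.01, 62.9 and 72.8 at P1 to 76.7, 73.9 and 81.4 at P7, by 11.2 points (SE 3.94, adjusted p = 0.0420 by limma). This call was lost when any 1 of 6 of the 7 samples was left out and with ranks of fold enrichment (2.43 points), and Tead1 RNA had a log2 fold change of 0.12 (SE 0.12, adjusted p = 0.418 by edgeR). Amotl1, an angiomotin that restrains YAP, fell by 38.2 points (SE 6.55, adjusted p = 0.00104 by limma). In the list of EBF, RUNX and mesenchymal factors, 8 of 19 promoter regions were weaker (42.1%, beside 29.1% of all), at Ebf3, Foxd1, Lhx2, Meox2, Prrx1, Runx3, Tbx15 and Twist1. Runx3 went from 74.3, 75.5, 58.1 and 85.9 at P1 to 10.9, 13.3 and 14.8 at P7, by -60.5 points (SE 7.34, adjusted p = 1.70e-04 by limma), and its RNA had a log2 fold change of -1.21 (SE 0.11, adjusted p = 8.02e-09 by edgeR). The forkhead factor Foxd1 fell by 53.3 points (SE 6.28, adjusted p = 1.51e-04 by limma) with a log2 fold change of -1.85 (SE 0.44, adjusted p = 0.00111 by edgeR) in RNA. Runx2 was the 1 stronger region of this list, but P7 replicate 3 at 70.4 lay within the P1 values of 66.4, 60.4, 69.2 and 71.5. That call was lost without any 1 of P1 replicates 1, 2 and 3 and P7 replicates 1 and 2.

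Of NF-kB and secretory phenotype genes, 12 of 30 promoter regions were weaker (40%, beside 29.1% of all) and 0 stronger, with RNA higher for 9 and lower for 7 of 36 genes, beside 8.1% and 13.3% of all genes. Mmp3, a matrix metalloproteinase, had the largest loss of this list. Its region at chr9:7445035-7446329 stood at 75.3, 78.8, 75.2 and 77.2 at P1 and at 37.5, 24.9 and 24.6 at P7, a difference of -47.6 points (SE 5.89, adjusted p = 1.90e-04 by limma). Mmp3 RNA was 792 ± 202 at P1 and 53.5 ± 9.36 at P7 (SD, n = 4 each) in CPM, with a log2 fold change of -3.89 (SE 0.22, adjusted p = 2.83e-11 by edgeR). Ptgs2, the inducible cyclooxygenase, went the other way in RNA, with a log2 fold change of 3.70 (SE 0.21, adjusted p = 3.10e-11 by edgeR), while its promoter fell by 11.8 points (SE 3.49, adjusted p = 0.0198 by limma). Without P7 replicate 2 its promoter fell by 7.61 points and was not called. Without P1 replicate 2 or 3 the adjusted p by limma was 0.0514 and 0.0519. The Ccl2 promoter, of a chemokine for monocytes, fell by 11.8 points (SE 3.28, adjusted p = 0.0145 by limma), a call lost without P7 replicate 3, and Nfkb1 fell by 30.4 points (SE 6.67, adjusted p = 0.00419 by limma), with a log2 fold change of -0.02 (SE 0.07, adjusted p = 0.827 by edgeR) in RNA.

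Interferon-stimulated genes had 10 weaker of 25 promoter regions (40%, beside 29.1% of all) and 0 stronger, and RNA was lower for 14 of 27, beside 13.3% of all genes. The RNA sensors Ifih1 and Ddx58 fell by 35.5 points (SE 4.74, adjusted p = 2.71e-04 by limma) and by 34.2 points (SE 6.46, adjusted p = 0.00182 by limma). Ifih1 RNA had a log2 fold change of -1.26 (SE 0.15, adjusted p = 4.95e-07 by edgeR), and Ddx58 RNA had a log2 fold change of -0.35 (SE 0.13, adjusted p = 0.0228 by edgeR), which did not pass the fold limit. Gbp3, a guanylate-binding protein, fell by 12.1 points, near the limit of 10, and was not called without P7 replicate 2.

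For matrix and contractile genes, 12 of 37 promoter regions were weaker (32.4%) and 1 stronger, near the 29.1% and 2.32% of all promoter regions, while RNA of 15 of 37 genes was higher and of 5 lower, beside 8.1% and 13.3% of all genes. The stronger one was at Cnn1, the smooth muscle protein calponin, from 31.3, 50.6, 27.7 and 43.6 at P1 to 62.1, 71.5 and 73.6 at P7. The difference was 30.7 points (SE 7.25, adjusted p = 0.00630 by limma), and Cnn1 RNA was 13.7 ± 2.86 at P1 and 201 ± 50.97 at P7 (SD, n = 4 each) in CPM, with a log2 fold change of 3.87 (SE 0.18, adjusted p = 2.56e-12 by edgeR). Here region and RNA rose together. Col6a3, a chain of collagen VI, fell in both, by 45.2 points (SE 6.14, adjusted p = 2.92e-04 by limma) in rank and with a log2 fold change of -1.17 (SE 0.15, adjusted p = 1.73e-06 by edgeR) in RNA. Thbs1, thrombospondin, was opposite: the region fell by 31.9 points (SE 6.06, adjusted p = 0.00188 by limma), whereas the RNA had a log2 fold change of 1.40 (SE 0.11, adjusted p = 1.84e-09 by edgeR). Its fold enrichment was low, at 2.55, 2.19, 2.41 and 2.30 at P1 and 1.42, 1.70 and 1.80 at P7, and ranked by it the region fell by 1.65 points and was not called. Myl9, a myosin light chain, fell by 10.4 points (SE 3.48, adjusted p = 0.0342 by limma), a call lost without P1 replicate 1 or 4 or P7 replicate 1 or 2, and its RNA had a log2 fold change of 1.16 (SE 0.18, adjusted p = 1.73e-05 by edgeR).

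The regions near the limit depended on the population ranked. Among all peaks of a sample, the promoters of Tyms, Rrm2, Cdc25b, Plk1, Tbx15, Ptgs2, Ccl2, Gbp3 and Myl9 fell by 3.73 to 6.23 points and were not called, and Nf2 rose by 8.91 points. With fold enrichment the Cnn1 promoter rose by 19.8 and the Tmpo promoter fell by 18.8 points, with adjusted p = 0.0633 and 0.0825 by limma.

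**Figure D4:**
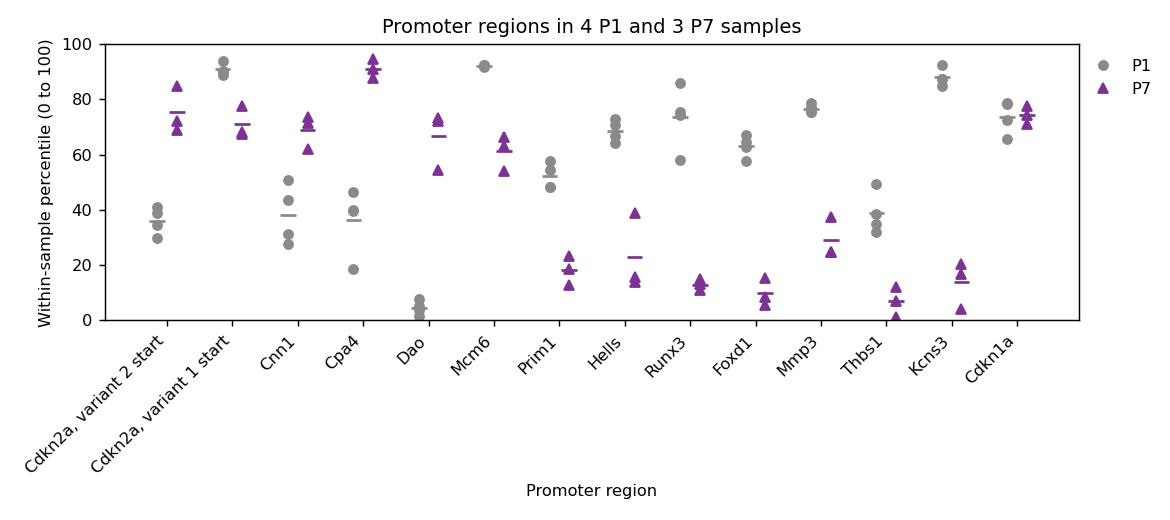
Within-sample percentile (0 to 100) of 14 promoter regions in the 4 P1 samples (circles) and the 3 P7 samples (triangles), with bars at the group means. The groups do not overlap in 13 regions, and at Cdkn1a they do. Kcns3, Cpa4 and Dao were chosen among regions whose groups do not overlap. The Cdkn2a region at the start of variant 2 rises while that of variant 1 falls.

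Some regions opposed the RNA with large differences. The region at chr7:133710346-133711070, nearest to the start of Uros, an enzyme of haem synthesis, stood at 77.5, 80.7, 72.98 and 65.2 at P1 and at 3.86, 22.2 and 2.55 at P7, by -64.6 points (SE 7.27, adjusted p = 1.24e-04 by limma), while Uros RNA had a log2 fold change of 1.19 (SE 0.14, adjusted p = 5.37e-07 by edgeR). Its summit also lies in an intron of Bccip, and the nearest start gave it to Uros. B230311B06Rik and Rgs20, a regulator of G-protein signalling, fell by 46.7 and 46.5 points, with log2 fold changes of 1.92 and 1.78. The promoter of Wfdc17 rose from 39.7, 37.8, 39.7 and 33.8 to 69.02, 68.4 and 57.05, by 27.1 points (SE 6.31, adjusted p = 0.00592 by limma), as its RNA fell from 1011 counts over the 4 P1 libraries to 9 over the 4 P7 libraries. Lmod3, an actin nucleator of muscle, rose by 35.5 points (SE 6.59, adjusted p = 0.00164 by limma) while its RNA fell from 173 to 3 counts. Ppp2r3a, a regulatory subunit of a phosphatase, rose by 35.6 points with a log2 fold change of -1.12. Both regions of H2-Eb1, a class II histocompatibility chain, were stronger, by 19.7 and 20.97 points, while its RNA fell from 131 to 25 counts over 4 libraries. The first of these calls was lost without any 1 of P1 replicates 2 and 3 and P7 replicates 1 and 3. Among promoter regions of genes with higher RNA, those that rose most besides Cdkn2a were at C920009B18Rik and Pcdhga7, by 47.1 and 43.9 points. Macrophage and muscle marker RNA fell over the same samples as RNA of Wfdc17, H2-Eb1 and Lmod3, and its part in these values was not tested. Pcdhga7 shares exons with its gene cluster, so that its counts are uncertain.

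The passages between were then examined in samples that the calls did not use. Of 16589 stronger regions, 14471 had a peak in all 13 samples, and 65.98% of these were higher at P5 than at P3, by a median of 4.40 points. Of 15147 weaker regions, 68.9% were lower at P5, with a median difference of -5.05 points. Regions without a call were lower in 50.7%. Weaker promoter regions were lower at P5 in 86.4%, but so were 64.5% of promoter regions without a call.

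The direction of this share depends on the ranking. Among all peaks of a sample, 89.1% of stronger and 34.97% of weaker regions moved from P3 to P5 in the direction of P7. With fold enrichment among shared regions the shares were 64.1% and 67.2%. The P3 lists held 142384 to 155681 peaks and the P5 lists 182402 to 207965. A rank among all peaks depends on which peaks a list holds, so the first 2 shares are not a property of the regions alone. Over the regions with a peak in all 13 samples, the median percentile of promoter regions was 78.7, 76.6 and 78.2 at P3 and 72.8, 71.2 and 75.1 at P5, beside 78.1, 77.96, 77.6 and 79.1 at P1 and 69.9, 65.8 and 69.1 at P7. Hence the median over all promoter regions overlapped between P3 and P1 and was lower at P5 and P7. For promoter regions called weaker it was lower at P3, at 65.96, 63.3 and 65.9, beside 70.9, 70.01, 70.4 and 71.5 at P1. Over all called regions the medians at P3 were 44.04, 43.8 and 44.4 for stronger and 48.3, 48.1 and 48.1 for weaker ones. The calls used the P1 values but not those of P3. Regions chosen by their P1 and P7 values tend to be less extreme in samples not used for the choice. The P3 medians of called regions therefore cannot show an early change. At the Cdkn2a variant 2 start the percentile was 62.95, 44.7 and 39.9 at P3 and 74.3, 62.3 and 76.9 at P5, and at Mcm6 it was 85.8, 81.8 and 80.1 at P3 and 69.1, 54.8 and 75.6 at P5. P3 and P5 overlapped at Cdkn2a, whereas at Mcm6 all P5 samples lay below P3.

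**Figure D5:**
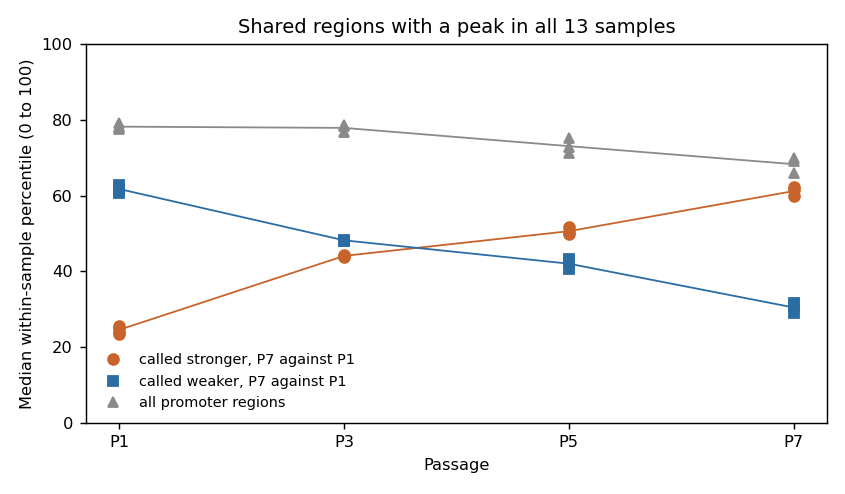
Median within-sample percentile (0 to 100) in each of the 13 ATAC-seq samples by passage, for regions called stronger (circles), regions called weaker (squares) and all promoter regions (triangles), with lines through the passage means. The P1 and P7 ends of the first and second are fixed by the calls, and the P3 and P5 samples, which the calls did not use, lie between. Selection on P1 and P7 can place them there by itself.

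Motif letters differed between stronger and weaker regions, in windows of 201 bases at the summit and with no test. At promoters an AP-1 match was in 19.6% of stronger regions (64 of 327), 4.66% of weaker ones and 6.51% of all. In distal regions the AP-1 share was nearly even, at 30.3% of stronger, 28.3% of weaker and 30.4% of all. TEAD letters were in 11.1% of stronger and 6.13% of weaker distal regions, and in 8.37% of all. The CREB letters were in 0.713%, 0.304% and 0.5002%. RUNX letters were in 7.34% of stronger, 1.93% of weaker and 2.96% of all promoter regions.

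EBF and E2F letters at promoters and EBF, LHX, CTCF and E2F letters in distal regions were more frequent in weaker than in stronger regions. EBF letters were in 7.75% of weaker, 2.47% of stronger and 4.78% of all distal regions. For LHX, the letters of many homeodomain factors, the shares were 7.39%, 3.17% and 4.68%, whereas at promoters the order was the other way, with 1.001% of weaker, 2.45% of stronger (8 regions) and 1.095% of all. CTCF letters were in 1.06%, 0.141% and 0.721%. E2F letters were in 9.91% of weaker, 1.53% of stronger and 8.46% of all promoter regions. ETS letters were in 5.44%, 1.83% and 6.11%, so that weaker promoter regions held them less often than all. NFY letters were in 37.2% of promoter regions without a call and in 23.5% and 22.9% of weaker and stronger ones. The median GC content of promoter regions with E2F letters was 65.7% and of those with AP-1 letters 53.2%, so the letters and the GC content moved together, and their parts were not tested. For LHX this did not hold, since distal regions with its letters had a median GC of 42.8%.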

How the data were processed

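ATAC-seq and RNA-seq were made from mouse skin fibroblasts at passages P1, P3, P5 and P7, and samples were grouped by passage as the labels give it. For ATAC-seq, the authors aligned reads to mm10 with Bowtie2 2.3.5.1, removed duplicates with Picard and reads of low mapping quality, and called peaks in each sample separately with MACS2. The deposited peak lists give fold enrichment at the summit (a ratio to background) and -log10 p and q values, with no read counts, so that depth is unknown. For RNA-seq, the deposited counts are raw whole reads per gene, which the authors obtained with Trimmomatic 0.39, HISAT2 2.2.1 and HTSeq 0.12.4 on mm10 without regard to strand, so that antisense and overlapping genes are uncertain.

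Peaks of the 7 samples of P1 and P7 were merged where they overlapped, and regions with a peak in every sample were kept. Each region's highest -log10 p in a sample was ranked within that sample as a percentile, and width was the number of bases covered by its peaks. Both were fitted across all regions with limma 3.58.1 in R 4.3.3, with Benjamini-Hochberg adjustment. Counts were fitted with edgeR 4.0.16 (quasi-likelihood, TMM, filterByExpr), with DESeq2 1.42.0 as an alternative. Single values per sample were compared by exact permutation test, two-sided. The scripts were tested on simulated data. Of 24984 genes, 24463 matched RefSeq directly by symbol and 419 through an older symbol. Of the matched genes, 24848 were given a start site in the RefSeq annotation of GRCm38, the assembly also called mm10. The nearest start site gave each region its gene.

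The members and gene lists were chosen with earlier results of these data known. Genes named were the 5 largest rises and falls of promoter and of distal regions whose groups do not overlap, the 3 that widened and the 3 that narrowed most, the called promoters of each list (up to 4, else the 2 highest and 2 lowest), genes the study names, and the 3 largest changes with and against the RNA in each direction. Other weaker promoters of the lists were added once their values had been seen. Some items are not reported here. Alternatives covered the population ranked, the value ranked, peak thresholds, the overlap needed, the limits, the replicate number as a block and leaving out each sample.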

Additional observations from a re-analysis of the deposited data

Results flagged for a closer look

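In 18 of 231 groups of 4 samples, 1 sample stood far from the other 3 by Dixon's ratio, the gap to its nearest neighbour divided by the range of the group. Chance gives this in about 1 in 20 groups. Among percentiles of regions at P1, the ratio was 0.9051 at Trp53, 0.8631 at Cdkn2c, 0.8586 at Ptgs2 and 0.8662 at Ccl2. Among CPM values at P1, it was 0.9489 for Cpa4, 0.8474 for Vgll4, 0.8547 for Nfkb1 and 0.9255 for Fos. At P7 it was 0.9969 for Tmem132c, 0.8604 for Trp53, 0.9203 for Tead1, 0.8364 for Foxd1, 0.8329 for Runx3 and 0.9115 for Uros.

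P1 replicate 2 was the lowest of the 4 P1 samples in several medians. The ratio was 0.8929 for the width of shared regions, 0.9718 for their -log10 p, 0.8846 for the bases of distal regions and 0.86 for their -log10 p. Without this sample, 3766 promoter regions were weaker and 307 stronger.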

How the results depend on the processing

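Promoter regions were more often weaker than stronger, and distal regions more often stronger than weaker, under each alternative run. Over all regions, weaker ones outnumbered stronger ones, and this order turned among all peaks (20911 stronger), with 20 points (12186), over bases covered in all samples (18476 stronger, 16121 weaker) and with P3. That of wider and narrower regions turned with centring. Stronger regions numbered 10671 where at least 50% of the bases had to be covered in every sample and 6345 with P3 in place of P1, an alternative chosen after seeing the data. Weaker regions numbered 7831 ranked among all peaks, 11561 with a minimum of 20 points, 11242 with that coverage and 5906 with P3. Stronger promoter regions numbered 896 with normal scores, 190 with 20 points and 91 with P3, and weaker ones 1786 among all peaks, 2335 with 20 points and 2070 with P3. Distal regions were stronger in 10427 with that coverage and 6254 with P3, and weaker in 6045 among all peaks, 8224 with that coverage and 3836 with P3. Wider regions numbered 4376 centred, 3592 by percentile and 980 with a -log10 q of at least 5, and narrower ones 4075 centred, 4012 by percentile and 9837 with a lower limit on the ratio. The share of promoter regions that moved with the RNA was 62.04% by fold enrichment, 77.8% among all peaks, 56.7% with the adjusted p alone for genes and 76.4% by width. For distal regions it was 51.1%, 51.7%, 54.5% and 62.8%. Of the 385 promoter regions by width, 293 were narrower with lower RNA, 91 narrower with higher RNA and 1 wider with higher RNA. Their 76.4% is thus close to the share of lower genes among them. From P3 to P5, stronger and weaker regions moved alike in 89.1% and 34.97% among all peaks and in 64.1% and 67.2% by fold enrichment, so that among all peaks most weaker regions moved the other way. The cause was not tested.

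With 1 sample left out in turn, stronger regions numbered 12308 to 15313, weaker 13029 to 16069, promoter stronger 248 to 319, promoter weaker 3163 to 3991, distal stronger 12060 to 14994, distal weaker 9866 to 12134, wider 968 to 1586 and narrower 3524 to 9054. The ratio of P7 to P1 was 1.198 to 1.29 for peaks per sample and 0.840 to 0.893 for summits per peak, where the exact test then had too few splits to pass.

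Replicate numbers are shared by the groups, but the labels tie them to nothing, and the deviations of same-numbered ATAC-seq samples correlated by 0.04, 0.05 and -0.05. With the replicate number as a block, 15227 regions were stronger and 15274 weaker. For width, 0 passed by limma in either direction, while 27.2% had an unadjusted p under 0.05. Genes called by edgeR numbered 1088 higher and 1804 lower.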
